A study of Mus musculus with 3 samples.

Results

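The peaks described here are the GATA4 peaks that lie in mouse L1 repeats of the F and Gf subfamilies. They were chosen by the deposited HOMER annotation alone, as every peak whose detailed annotation names a LINE repeat of the type L1Md_F, L1Md_F2, L1Md_F3 or L1Md_Gf. There were 1148 of them among 50869 peaks, or 2.26% (exact 95% interval 2.13 to 2.39, for counting error only), and they covered 296 kb. The share depends on how peaks are counted: it was 3.67% with 1 peak kept per site of 7 kb and 0.829% among peaks with a −log10 q-value of 5 or more. The study mapped GATA4 by chromatin immunoprecipitation and sequencing in stomach mucosa of adult mice of 10 to 12 months. The 3 libraries all came from G4fb/fb R26 Bira/Bira mice, which carry a GATA4 with a Flag and biotin tag and the biotin ligase BirA. There were 2 GATA4 pull-down libraries, made with streptavidin beads, and 1 input library, which had no pull-down. The input carries the same code in its label as pull-down replicate 1, and the labels do not say whether the codes stand for animals. Every library comes from mice with the tag and the ligase, so the background of the beads in mice without them was not analysed here.

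L1 elements are long interspersed repeats that copy themselves through an RNA intermediate. A full-length copy starts with a promoter made of short tandem repeats called monomers, followed by an RNA-binding protein gene, a gene for an endonuclease and reverse transcriptase, and a tail. Most copies are cut short at the start and have lost the promoter. In the mouse the promoter types name the subfamilies: Gf is among the young, still mobile types, together with T and A, while the F types are the older relatives from which T and Gf arose. GATA4 is a zinc finger transcription factor that binds GATA motifs in endoderm and heart and is expressed in the gastric epithelium.

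The authors pooled both pull-downs into 1 call of 38770530 filtered tags, against 23023152 filtered input tags. This leaves 1 value per peak with no replicate error, and peaks are not replicates, so sets of peaks are set side by side below with no test between them. Of the pull-down tags 35% were removed as repeats of a position, and of the input tags 18.1%. The annotation names the repeat under the peak centre but gives neither the strand of the repeat nor the position in it, so which part of an L1 element a peak sits on was not analysed here. Reads from near-identical copies may be placed at the wrong copy, and the members' positions carry that limit throughout.

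L1Md_F2 held the most members, with 506 peaks or 44.1% of the 1148 (41.2 to 47.0). L1Md_F followed with 313 peaks (27.3%, 24.7 to 29.9), the young L1Md_Gf with 240 (20.9%, 18.6 to 23.4) and L1Md_F3 with 89 (7.75%, 6.27 to 9.45). The members made up 18.9% (17.9 to 19.9) of the 6077 peaks in LINE repeats of any kind, beside 2849 peaks in L1Md_T and 1599 in L1Md_A. These 3 sets together held 92.1% of all LINE peaks. The number of copies of each repeat in the genome was not analysed here, so the counts do not show a preference of GATA4 for any of them.

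The members were modest peaks. Their fold enrichment of pull-down over input ran from 2.49 to 8.30, with a median of 4.12 and quartiles of 3.72 and 4.52. The medians beside it were 4.29 in L1Md_T peaks, 4.29 in L1Md_A peaks and 4.37 in all peaks. The upper ends stand farther apart than the medians: the 95th percentile of fold was 5.31 in the members, 5.68 in L1Md_T, 5.91 in L1Md_A and 7.70 in all peaks. At 5-fold or more there were 118 members, 10.3% (8.58 to 12.2), where 30.3% of all peaks reached that level. The same share was 17.9% in L1Md_T (16.5 to 19.4) and 18.3% in L1Md_A (16.5 to 20.3). No member reached 10-fold (0 of 1148, upper bound 0.321%), beside 1 of 2849 L1Md_T peaks, 0 of 1599 L1Md_A peaks and 1.04% of all peaks. Among the top 10% of all peaks by −log10 q-value there were 6 members, 0.52% (0.19 to 1.13), beside a background of 10%. L1Md_T and L1Md_A peaks were also scarce there, at 0.84% (0.54 to 1.25) and 2.13% (1.48 to 2.96). At the limits that follow, the L1Md_T and L1Md_A shares also stood between those of the members and of all peaks. At 4-fold or more were 57.1% of the members (54.1 to 59.9), beside 62.7% in L1Md_T, 63.4% in L1Md_A and 68.1% of all peaks. At 6-fold or more were 1.05% of the members (0.54 to 1.82), beside 2.84% in L1Md_T, 4.57% in L1Md_A and 15.4% of all peaks. With −log10 q-values of 3 or more there were 691 members, 60.2% (57.3 to 63.0), beside 68.8% in L1Md_T, 68.3% in L1Md_A and 72.3% of all peaks. With 5 or more there were 142 members, 12.4% (10.5 to 14.4), beside 20.3% in L1Md_T, 22.1% in L1Md_A and 33.7% of all peaks.

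Within the members, the Gf peaks had the highest median fold and the largest share at 5-fold, and the 3 F types lay close together in both. The median fold was 4.34 in L1Md_Gf (95% interval of the median 4.29 to 4.52), 4.12 in L1Md_F (4.09 to 4.14), 4.10 in L1Md_F2 (3.94 to 4.12) and 4.12 in L1Md_F3 (3.92 to 4.14). These intervals cover counting error only and treat each peak as independent, which neighbouring peaks need not be. They serve as no test between subfamilies. At 5-fold or more were 18.8% of the Gf peaks (14.0 to 24.3), against 7.67% in L1Md_F (4.97 to 11.2), 8.89% in L1Md_F2 (6.56 to 11.7) and 4.49% in L1Md_F3 (1.24 to 11.1). The Gf share stood close to that of L1Md_T and L1Md_A given above. Gf also had the largest share with −log10 q-values of 5 or more, at 20.8% (15.9 to 26.5). That share was 12.1% in L1Md_F (8.74 to 16.3), 9.49% in L1Md_F2 (7.08 to 12.4) and 6.74% in L1Md_F3 (2.51 to 14.1). The top 10% of all peaks by −log10 q-value held too few members to rank the subfamilies. They were 1 of 240 Gf peaks, 4 of 313 L1Md_F peaks and 1 of 506 L1Md_F2 peaks, with no L1Md_F3 peak. Gf peaks were also somewhat longer, at a median of 242.5 bp, against 234 bp in L1Md_F, 218 bp in L1Md_F2 and 211 bp in L1Md_F3. The median length was 226 bp in all members, 265 bp in L1Md_T peaks, 249 bp in L1Md_A peaks and 268 bp in all peaks.

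**Figure D1:**
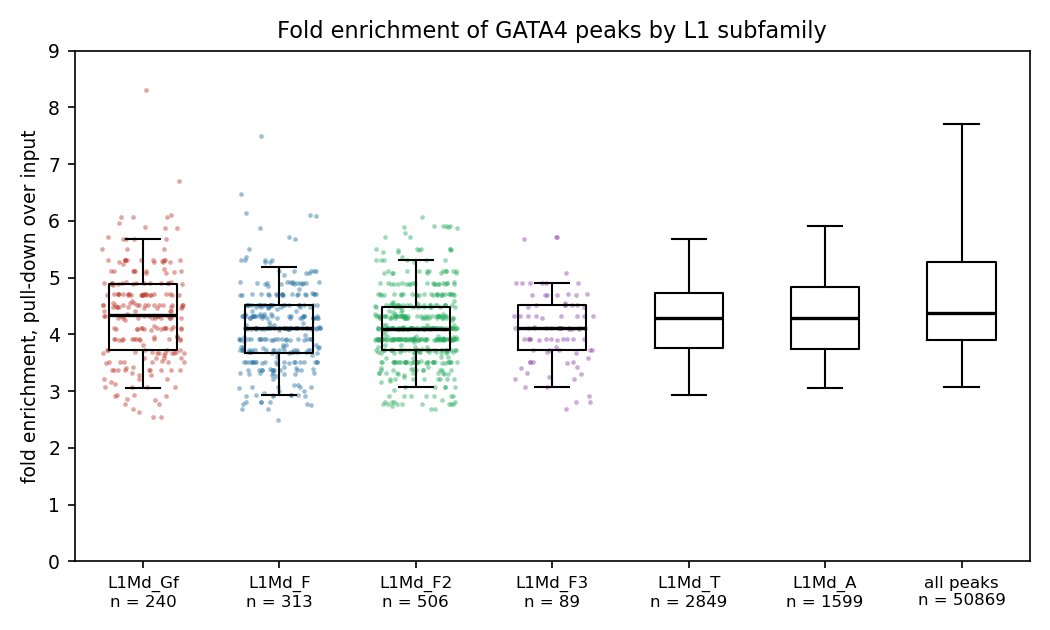
Fold enrichment of pull-down over input by L1 subfamily, with 1 point per member peak in the first 4 columns. Boxes give the median and quartiles and whiskers the 5th and 95th percentile, also for L1Md_T, L1Md_A and all peaks, whose single peaks are not drawn; the L1Md_Gf box has its median at 4.34 and the 3 F types at 4.10 to 4.12.

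The tag numbers show how few reads stand behind such a peak. The median member had 20 pull-down tags at its summit, and a count of 20 carries an exact Poisson 95% interval of 12.2 to 30.9. The quartiles of the members were 18 and 23 tags. The whole list had a median of 22 tags with quartiles of 19 and 27. Because tags are whole numbers and many peaks share the lowest possible input, fold values repeat: the 1148 members held 160 different values, and 99 members shared the fold of 4.12, with 19 tags each. Ranks among members with near-equal folds therefore carry no information.

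The input under the members was low, and close to that under all peaks. The local input is the larger of the genome-wide level of 1.98 tags and the levels in windows around the peak. It was at the genome-wide level in 568 members, 49.5% (46.5 to 52.4), and in 49.4% of all peaks. At 4 tags or more, counted from 0.005 below, it stood in 60 members, 5.23% (4.01 to 6.68), beside 8.42% in L1Md_T, 7.88% in L1Md_A and 6.63% in all peaks. The median input was 2.0 tags in the members and 2.0 in all peaks. The folds of members at the genome-wide level differ by their pull-down tags alone.

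A few peaks, all but 1 of them in L1Md_F, departed from this, with many tags on both sides. The member with the most pull-down tags lay on chromosome 8 at 19772353 to 19772846 (mm9), 43.0 kb from the transcription start site (TSS) of 4930467E23Rik. It had 150 tags (127 to 176), an input level of 28.0 and a fold of 3.11. A second member on chromosome 8, 260 kb away at 20032367 to 20032862 near 2610005L07Rik, had 135 tags (113 to 160), an input of 26.0 and a fold of 3.01. Their lengths were almost equal, at 494 and 496 bp. The next 3 by tag number were a peak on an unplaced contig of chromosome 8 near Gm21119, with 73 tags and an input of 15.1, an L1Md_F2 peak on chromosome 2 near Prkcq, the gene of a T-cell kinase, with 51 tags and an input of 10.0, and a peak on an unplaced contig of chromosome 1 near LOC100041034, with 49 tags and an input of 9.0. Their folds, from 2.75 to 3.11, stood near the low end of the members. The peaks at 4930467E23Rik and 2610005L07Rik had −log10 q-values of 15.6, the highest of all members, and 13.3, while the other 3 had 4.33 to 5.87. The number of copies of these sequences in the animals was not tested. In all, 6 members had an input of 8 or more, 0.52%, beside 0.35% in L1Md_T, 0.69% in L1Md_A and 0.91% of all peaks. On unplaced contigs lay 19 members, 1.66%, beside 0.35% in L1Md_T, 1.06% in L1Md_A and 0.56% of all peaks. Of these 19 members 12 were in L1Md_F.

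**Figure D2:**
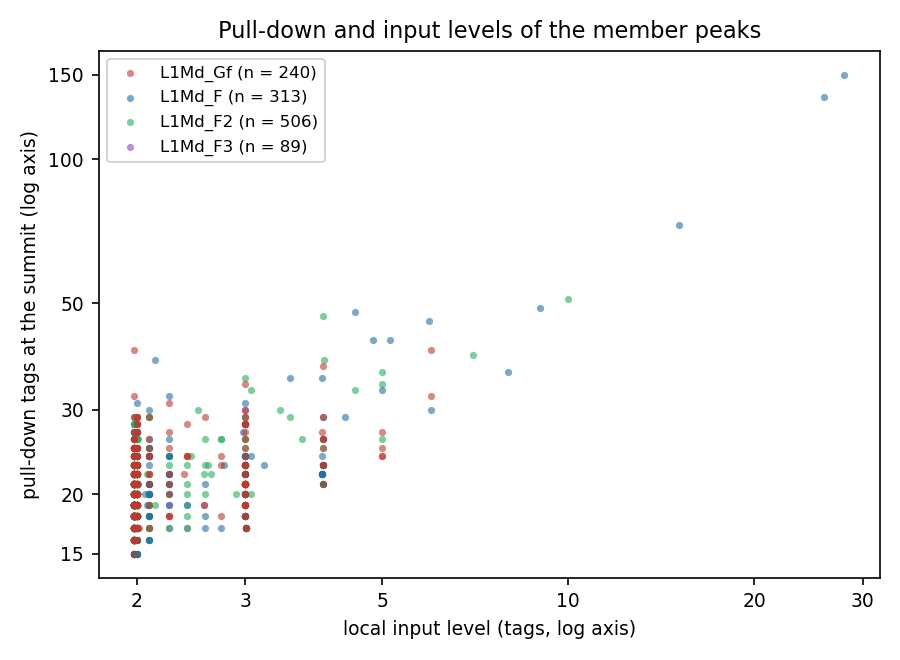
Pull-down tags at the summit against the local input level in tags for each of the 1148 member peaks, both on log axes, coloured by subfamily. Most points stand between 15 and 30 tags over an input near 2, and the 2 L1Md_F peaks of chromosome 8 stand alone at the upper right with 150 and 135 tags.

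The 10 strongest members by fold had 29 to 40 tags over inputs of 1.98 to 2.25. First was an L1Md_Gf peak on the X chromosome at 116365156 to 116365608, in intergenic sequence 675 kb from Pabpc5, a gene of a poly(A)-binding protein. It had 40 tags (28.6 to 54.5) over an input of 1.98, a fold of 8.30, and it stood 1629th in fold among all peaks. Second was an L1Md_F peak on chromosome 14 at 43353205 to 43353614, 23.3 kb from Gm10377, with 38 tags and a fold of 7.50. The intervals of these tag counts overlap, so their order is not fixed by the data.

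Further down came an L1Md_F peak on chromosome 13 at 15344302 to 15344563, 211 kb upstream of Gli3, which encodes a transcription factor of hedgehog signalling, at 6.47-fold. An L1Md_F peak on an unplaced contig of chromosome 8 near LOC664787 reached 6.15-fold. An L1Md_Gf peak on chromosome 3, 140 kb from 1700027H10Rik, and an L1Md_F peak on chromosome 6, 8.68 kb upstream of the vomeronasal receptor gene Vmn1r49, both had 29 tags and 6.11-fold. An L1Md_F peak on the X chromosome near H2afb1, the gene of a histone variant of the testis, had 30 tags and 6.08-fold. The last of the 10 were L1Md_Gf peaks near Mir511 and Gm30731, which shared their fold of 6.07 with 2 further members. The peak near Mir511, at 14217446 to 14217809 of chromosome 2, lay in intron 15 of 29 of Mrc1, which encodes the macrophage mannose receptor. Of these 10 members 5 were L1Md_Gf and 5 were L1Md_F peaks.

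The strongest L1Md_F2 peak tied with the last of these 10, and the L1Md_F3 peaks were lower. L1Md_F2 reached 6.07-fold on chromosome 6, 17.0 kb upstream of 1700016P04Rik, and 5.91-fold in intron 2 of 27 of Abcb5, a transporter gene on chromosome 12, and 7.76 kb upstream of the zinc finger gene Zfp97 on chromosome 17. L1Md_F3 reached 5.71-fold on chromosome 15 near 4933412E24Rik and on the X chromosome near 4933401B06Rik, and 5.68-fold 314 kb upstream of Il1rapl1, an X-linked gene of synapse formation. At the other end, the lowest fold was 2.49, in an L1Md_F peak on an unplaced contig of chromosome 1 with 36 tags over an input of 8.0. The L1Md_Gf peaks near Ppfia2 and 1700030F04Rik followed at 2.54-fold, each with 24 tags over an input of 5.0, and then peaks near H2afb3 at 2.64-fold and near Vmn2r9 at 2.69-fold. The longest member, 1061 bp, was an L1Md_Gf peak on chromosome 6 near A530053G22Rik, at 5.30-fold.

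Members lay far from the starts of genes, also when set beside other peaks of their annotation class. In the annotation 995 of them, 86.7% (84.6 to 88.6), were intergenic and 153, 13.3% (11.4 to 15.4), were in introns. The rule fixed that no other class occurs, since all 6077 peaks that the annotation places in LINE repeats were intergenic or intronic. Intergenic peaks made up 77.4% of the L1Md_T set and 79.6% of the L1Md_A set. The median distance from a member to the nearest TSS was 92.3 kb, beside 121 kb in L1Md_T, 137 kb in L1Md_A and 7.34 kb in all peaks. All peaks include promoter and exon peaks, which the rule left out of the members, so like classes are set side by side here. Intergenic members had a median distance of 100.6 kb (88.3 to 110), beside 36.4 kb in all intergenic peaks (35.5 to 37.6), and intronic members 56.8 kb (44.6 to 80.9), beside 10.1 kb in all intronic peaks (9.64 to 10.4). Over 10 kb from a TSS were 94.1% of intergenic members (92.4 to 95.5) and 80.02% of all intergenic peaks, and 91.5% of intronic members (85.9 to 95.4) and 50.2% of all intronic peaks. Over the members as a whole the share was 93.7% (92.2 to 95.1), beside 95.6% in L1Md_T and 96.3% in L1Md_A. The subfamilies differed here too: the median distance was 42.9 kb in L1Md_F3 (34.6 to 61.0), 82.1 kb in L1Md_F (66.4 to 106), 103 kb in L1Md_F2 (90.3 to 116) and 116 kb in L1Md_Gf (78.6 to 154). The intervals of these medians serve as no test between subfamilies, as peaks are not replicates. The farthest member, an L1Md_Gf peak of 3.92-fold on chromosome 3, was 1815 kb from D3Ertd751e.

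**Figure D3:**
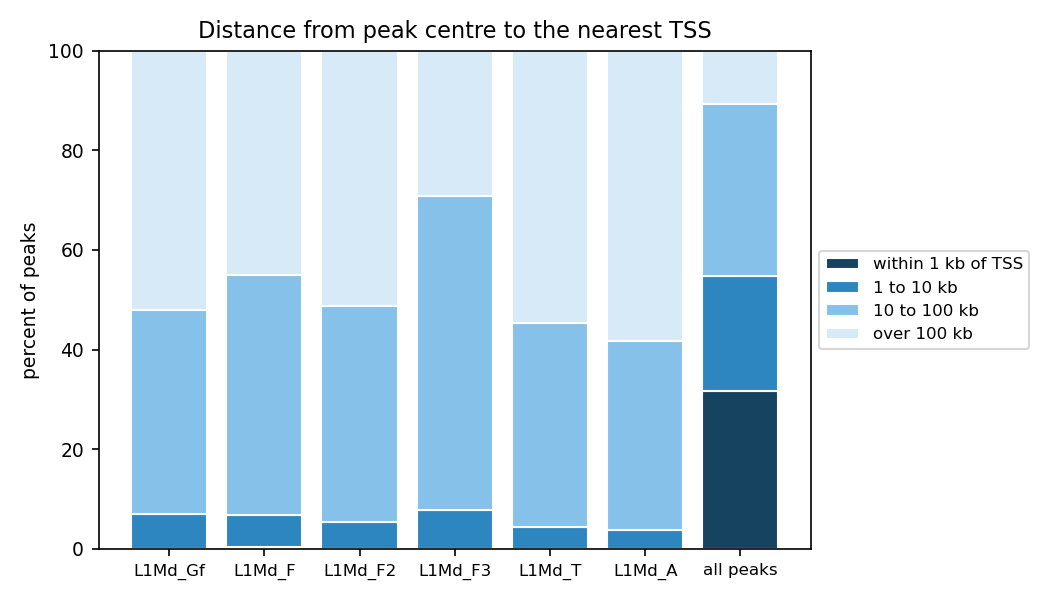
Share of peaks by distance from the peak centre to the nearest TSS, in 4 classes stacked to 100%, for the 4 member subfamilies, L1Md_T, L1Md_A and all peaks. Peaks within 1 kb of a TSS make up 31.7% of all peaks, and 1 member of 1148 falls in that class, from which the rule left out the promoter peaks.

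The single member within 1 kb of a TSS was an L1Md_F peak in the only intron of Fthl17a, an X-linked gene of the ferritin heavy chain family (82495166 to 82495326). It lay 230 bp from the TSS and had 19 tags over an input of 3.0, a fold of 3.07. The next nearest to protein-coding genes were 1.04 kb upstream of Epm2a, which encodes the glycogen phosphatase laforin (3.92-fold), 1.25 kb upstream of 4932414N04Rik (4.49-fold), 1.37 kb upstream of Ppef1, an X-linked phosphatase gene (3.94-fold), and 1.54 kb upstream of Vmn2r44 (3.72-fold). These 5 peaks were all below 5-fold. They were in L1Md_F, except the peak at Ppef1, in L1Md_F2, and the peak at Vmn2r44, in L1Md_F3.

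Intronic members were spread over many genes. The 152 intronic members whose transcript had a symbol fell in 134 host genes, of which 16 held 2 or more. The largest number was 3, in Pcdh11x, an X-linked protocadherin gene, and in Gm6902. Members in introns had a median fold of 4.12, the same as all members. A first intron held 38 of the 153, or 24.8% (18.2 to 32.5), beside 45.3% of all intronic peaks. The L1Md_T and L1Md_A sets were similar to the members, with 150 of 644 and 73 of 326 intronic peaks in a first intron. The nearest TSS belonged to the host gene in 106 of the 152.

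The X chromosome carried the most members. It held 216 of the 1148, 18.8% (16.6 to 21.2), while 3.39% of all peaks lay there (3.23 to 3.55). In like classes the X share was 19.3% of intergenic members (16.9 to 21.9), beside 6.33% of all intergenic peaks (5.96 to 6.72). It was 15.7% of intronic members (10.3 to 22.4), beside 1.94% of all intronic peaks (1.73 to 2.16). L1Md_T had 11.7% of its peaks on the X chromosome (10.5 to 12.9) and L1Md_A 11.9% (10.3 to 13.6). By subfamily the X share was 19.2% in L1Md_Gf, 19.5% in L1Md_F, 18.6% in L1Md_F2 and 16.9% in L1Md_F3, with intervals that overlap. Measured per Mb up to the last peak of a chromosome, there were 1.30 members on the X chromosome and 0.369 on the autosomes, where chromosome 11 was lowest at 0.181 and chromosome 7 highest at 0.525. That is 3.51 times the autosomal density, beside 1.97 times in L1Md_T, 2.03 times in L1Md_A and 0.523 times in all peaks. Seen from the chromosome, 42.9% of the 1723 peaks of the X chromosome lay in L1Md_F, Gf, T or A repeats, against 9.84% of the peaks of the autosomes. L1 repeats are known to be dense on the mammalian X chromosome, and the density of the repeats themselves was not analysed here, so the share of copies with a peak is not known for either. Peak heights gave no such split: the median fold was 4.12 on the X chromosome (3.96 to 4.29) and 4.12 in the other members, over a median input of 2.0 and 1.98 tags. No member lay on the Y chromosome, where the whole list held 4 peaks.

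**Figure D4:**
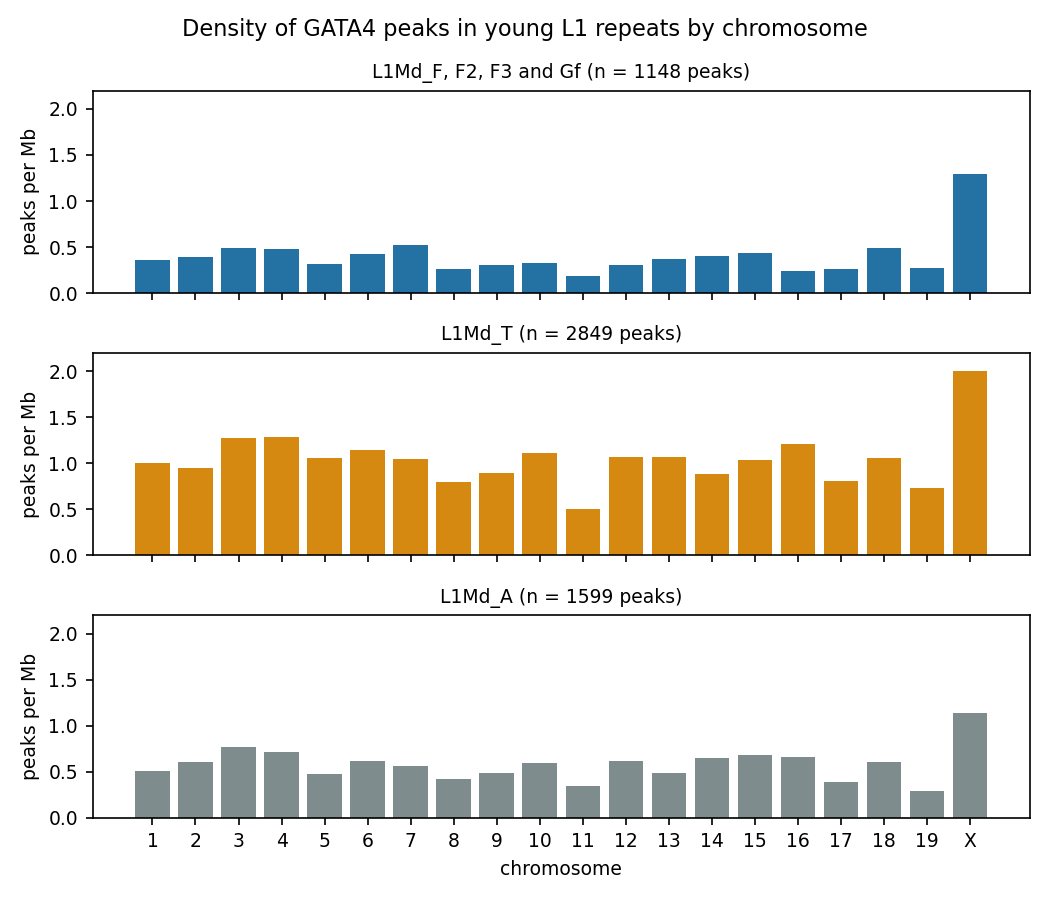
Peaks per Mb by chromosome for the members, L1Md_T and L1Md_A, with Mb counted up to the last peak of each chromosome. The X bar stands at 1.30 per Mb in the members, where the autosomes range from 0.181 to 0.525, and at 2.0 in L1Md_T and 1.14 in L1Md_A.

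Members on the X chromosome were crowded in one stretch. This stretch, between 24541240 and 33167748, or 8.63 Mb, held 136 of the 1723 peaks of any kind on the chromosome. Of these 53 were members, 24.5% of the members on the chromosome. Their nearest genes were Gm10096 with 12 members, Gm10488 with 9, Gm10486 with 7, Gm10058 and Gm4836 with 5 each, Btbd35f2 and other genes named Btbd35f, and a few more predicted genes, 16 in all. Gm10096, Gm10488 and Gm10486 also had the most members of any gene in the genome. The edges of the stretch are the outermost members credited to these genes, so its choice favours a high member count. The same gene name stood beside peaks far apart, and the distances to it recurred. The L1Md_F peaks at 28000252 and at 28347097, 347 kb from each other, were each 88.3 kb upstream of a TSS named Gm10096. Near Gm10488, L1Md_F2 peaks lay at 106.0 and 106.1 kb and L1Md_Gf peaks at 40.9 and 41.2 kb. In all, 8 of the 28 members credited to Gm10096, Gm10486 or Gm10488 shared their distance with another one of the same gene name to within 300 bp. Peaks of this stretch cannot be counted as independent sites, since reads of near-identical copies may not be told apart. How alike the copies of this stretch are was not tested. Their folds ran from 2.74 to 5.78 with a median of 4.10, and their median input was 2.0. The highest −log10 q-value among them, 10.5, belonged to an L1Md_F2 peak near Btbd35f2 (30517623 to 30518297) with 47 tags, an input of 4.0 and a fold of 5.78. Without any peak of the stretch, which was set apart after the data were seen, the X share was 14.9% in the members, 11.3% in L1Md_T, 10.8% in L1Md_A and 3.13% in all peaks, and the rest of the X chromosome had 1.03 members per Mb.

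Beyond the X chromosome no gene gathered many members. The 1148 members were credited to 869 nearest genes, and 692 of these had 1 member. Lrrc4c, which encodes a synaptic adhesion protein on chromosome 2, was the nearest gene of 6, at distances of 670 to 1636 kb and folds of 3.52 to 4.89. Rag2, of antigen receptor recombination, and Tyrp1, of melanin synthesis, had 5 each, none nearer than 422 and 540 kb. At such distances the nearest gene is a label for a position rather than for a site at the gene. Gm10377 had 5 on chromosome 14 (43164933 to 43677996), one of them the 7.50-fold peak named above, and LOC100041034 had 5 on an unplaced contig of chromosome 1.

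Few peaks of any L1 set lay nearest to genes of the stomach. None of 33 foregut transcription factor genes was the nearest gene of a member (0 of 1148, upper bound 0.321%), beside 0.18% in L1Md_T, 0.06% in L1Md_A and 0.50% of all peaks, or 255 peaks. Of 29 gastric gland genes, 2 were: Car2, which encodes a carbonic anhydrase of parietal cells, with an L1Md_F3 peak 42.1 kb away (chromosome 3, 14928311 to 14928642; 23 tags, 4.92-fold), and Aqp4, the gene of a water channel of parietal cells, with an L1Md_F2 peak 26.6 kb away (chromosome 18, 15534751 to 15535090; 23 tags, 4.29-fold). These 29 genes took 0.17% of the members (0.02 to 0.63), beside 0.035% in L1Md_T, 0.063% in L1Md_A and 0.24% of all peaks, which lies within the members' interval. All peaks include promoter and exon peaks, which the rule left out of the members, and the gene lists were not counted in like classes.

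Receptor families for smell, pheromones and taste were near more members. Genes named Olfr, Vmn1r, Vmn2r or Tas2r were the nearest gene of 85 members, 7.40% (5.96 to 9.07), beside 3.86% in L1Md_T, 3.75% in L1Md_A and 0.83% of all peaks. Here too all peaks include promoter and exon peaks, and no like classes were set apart for the gene families. The 85 members were credited to 75 genes: 36 members to olfactory receptors, 26 and 18 to the V1r and V2r vomeronasal receptors and 5 to taste receptors. Within 10 kb of the TSS lay 27 of the 85. Over 10 kb from a TSS were 93.7% of all members and 45.3% of all peaks. The 85 had a median fold of 4.06 and a range of 2.69 to 6.11. The highest besides the peak at Vmn1r49 were near Vmn1r170 (5.89-fold, 10.5 kb upstream), Vmn1r16 (5.71-fold), Olfr834 (5.51-fold, 6.84 kb upstream) and Olfr1318 (5.32-fold). Genes of the cytochrome P450 families Cyp2, Cyp3 and Cyp4 took 8 members, 0.70% (0.30 to 1.37), beside 0.14% in L1Md_T, 0.31% in L1Md_A and 0.20% of all peaks. The highest lay 41.2 kb upstream of Cyp4a29, at 5.51-fold. Near Cyp3a41a were 3, at 3.41, 3.73 and 3.91-fold, of which those at 3.41 and 3.73 had inputs of 4.35 and 5.0. All these genes belong to large families of similar neighbours, which lie in clusters, so a peak may sit between several relatives of the named gene.

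Some members came as neighbours that could lie in 1 L1 element. With a gap of less than 7 kb, 131 members, 11.4% (9.63 to 13.4), stood in 61 pairs and 3 triples, and the 1148 peaks made up 1081 sites. In L1Md_T 28.5% of peaks stood in such groups (26.8 to 30.2) and in L1Md_A 25.1% (23.0 to 27.3). The L1Md_T and L1Md_A sets are larger, so a peak in them has more possible neighbours. Among the members the grouping followed the subfamily: 28.8% of the Gf peaks (23.1 to 34.9) had such a neighbour, against 10.9% in L1Md_F (7.64 to 14.8), 4.94% in L1Md_F2 (3.22 to 7.21) and 3.37% in L1Md_F3 (0.70 to 9.54). Peaks of a group enter these counts together, so the intervals serve as no test between subfamilies. The neighbour could be a member of any subfamily. Of the 67 neighbouring pairs 55 joined peaks of 1 subfamily, 33 of them in L1Md_Gf. Of the 6 pairs that joined L1Md_F to L1Md_F2, 4 lay in the crowded stretch of the X chromosome.

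Neighbouring summits mostly stood under 1000 bp apart. The median spacing was 587 bp in the 67 member pairs (quartiles 420 and 840), 502 bp in L1Md_T and 541 bp in L1Md_A. In 56 of the 67 pairs the summits were less than 1000 bp apart, beside 391 of 433 pairs in L1Md_T and 201 of 227 in L1Md_A. Of the member pairs 25 were at 250 to 500 bp, 16 at 500 to 750 bp and 14 at 750 to 1000 bp. The smallest spacing was 234 bp, where the shortest members were 161 bp long. The triples were an L1Md_Gf group on chromosome 3 near Mir124-2hg (16894292 to 16895430), with 23, 24 and 18 tags and folds of 4.92, 5.11 and 3.92, an L1Md_Gf group on chromosome 18 near Gramd3 (56382118 to 56383871), with folds of 4.72, 4.52 and 2.93, and an L1Md_F group on the X chromosome near H2afb1 (114200809 to 114203167), with folds of 4.89, 6.08 and 3.66. In the groups near Gramd3 and H2afb1 the peak of lowest fold had the highest input, 4.0 and 3.0 tags, and fold divides by the input. Its pull-down tags were 23 beside 22 and 21 near Gramd3, and 23 beside 23 and 30 near H2afb1.

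**Figure D5:**
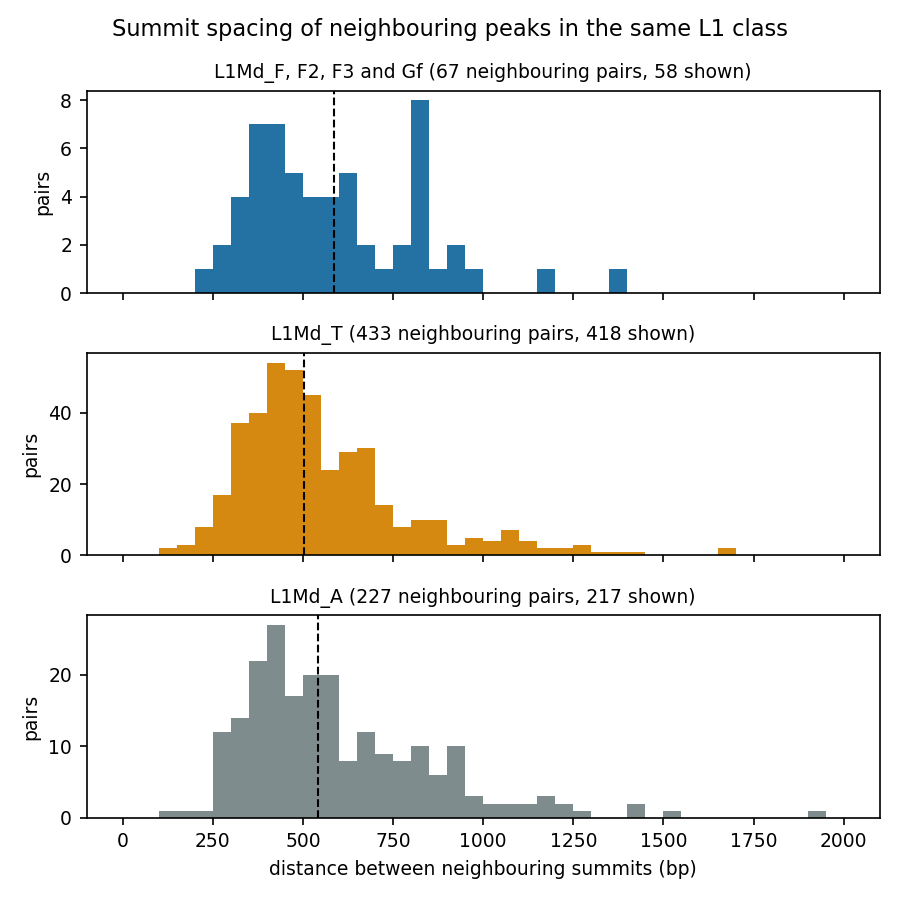
Distance in bp between the summits of neighbouring peaks of the same L1 class, in bins of 50 bp up to 2000 bp, with the median as a dashed line; pairs are separated by gaps of less than 7 kb. The member pairs have a median of 587 bp, and 56 of the 67 pairs stand under 1000 bp.

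Counting peaks of every kind, 195 members, 17.0% (14.9 to 19.3), had another peak within 7 kb, beside 31.5% of L1Md_T peaks, 28.1% of L1Md_A peaks and 60.4% of all peaks. That neighbour was another member in 129 of the 195, an L1Md_T peak in 26, an L1Md_A peak in 12, an LTR retrotransposon peak in 9 and a peak outside annotated repeats in 11. By subfamily, 35.0% of Gf peaks had a neighbour of any kind, against 18.2% in L1Md_F, 9.29% in L1Md_F2 and 7.87% in L1Md_F3.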

How the data were processed

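Peaks were taken from the tables the authors deposited. Bowtie2, MACS2, HOMER and the mm9 build appear in the submitters' processing notes. Per the file headers, MACS2 2.1.0.20140616 pooled both GATA4 pull-down libraries and set them against 1 input library, at a q-value limit of 0.05, keeping 1 tag per position. The placing of reads that match several repeat copies was not given in the sources used here.

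The deposited summit pileup is a signal of scaled tag coverage. The deposited fold is a ratio of pileup to local input, with 1 added to each side. The −log10 p-value and q-value columns had lost their names in the deposited table and were identified by order and by the deposited HOMER score, which in each of the 50869 peaks was the −log10 q-value multiplied by 10 and stripped of its decimals. Pileup was divided by the scaling of 0.594 to give whole tags, within 0.02 of a tag in all 50869 peaks. Local input was recovered as pileup plus 1, divided by fold, minus 1. An input within 0.005 of the genome-wide 1.98 counted as being at that level.

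Members were joined by peak name, and both tables gave the same coordinates for all 50869 peaks. Nearest genes and distances are HOMER's. Of the members, 1146 had an Entrez ID in the RefSeq table of GRCm38.p6, which was used for names only. Work was done in Python 3.11.15 with pandas 2.3.3 and SciPy 1.17.1, and the grouping and interval functions were tested on simulated data.

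The pooled call gives no value per replicate, and peaks are not replicates, so no test was made, neither between samples nor between sets of peaks. Shares carry exact Clopper-Pearson 95% intervals, medians exact order-statistic intervals and tag numbers exact Poisson intervals, which cover counting error only. The peaks named are the 10 highest in fold, the 5 highest in pileup and in −log10 q-value, the 3 highest in fold of each subfamily, the 5 nearest to the TSS of a protein-coding gene, the lowest in fold, the longest, those at the genes with the most members and those at 4 gene lists. Of the 10 highest in fold, 1 is not reported here. Alternatives were a stricter q-value, other thresholds, 1 peak per site and leaving out L1Md_Gf or the sex chromosomes. The members, lists and alternatives were chosen with earlier results of these data known.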

Additional observations from a re-analysis of the deposited data

How the results depend on the processing

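Leaving out a replicate was not possible, as both pull-downs were pooled before calling. No paired analysis was possible because the result comes from no test and the pooled list carries no value per replicate. Of 30 alternatives, 14 stayed within the interval of the reported value (for the number of members, within 1.5 times) and 16 did not, none with a change of direction, since no value is signed. The cause was not tested, unless the threshold itself sets the value.

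With −log10 q-values of 3 or more the members numbered 691, 1.88% of the peaks kept, with a median fold of 4.49 and a median input of 1.983. With 5 or more they numbered 142, 0.829% of the peaks kept, with a median fold of 5.31. The share of members among all peaks was 1.78% without L1Md_Gf and 3.67% with 1 peak per site, where 60.4% of all peaks had a neighbour within 7 kb. With no 1 added to either side the median fold was 5.69, beside 5.99 in all peaks. At 4-fold or more were 57.1% of the members (all peaks 68.1%) and at 6-fold or more 1.05% (all peaks 15.4%). In the top 20% were 2.79%. Over 5 kb from a TSS were 97.6% and over 50 kb 66.0%. The X share was 14.9% without the crowded stretch and 16.8% to 18.8% under the other 4 alternatives. Leaving out the stretch, its 3 leading genes or the unplaced contigs, and taking 1 peak per site for the X share, were chosen after the data were seen.

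The depth limits single peaks: at a median of 20 tags, neighbouring ranks cannot be told apart.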
